A study of Homo sapiens with 12 samples.

Results

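The 36 genes described here encode aminoacyl-tRNA synthetases, the enzymes that join each amino acid to its own tRNA. They were chosen by name from lists of peaks of m1A (N1-methyladenosine, a methylated form of adenosine), and 34 of the 36 had at least 1 peak, out of 10226 genes with a peak in any list. The 20 cytosolic members were AARS, CARS, DARS, EPRS, FARSA, FARSB, GARS, HARS, IARS, KARS, LARS, MARS, NARS, QARS, RARS, SARS, TARS, VARS, WARS and YARS. The 16 mitochondrial members were AARS2, CARS2, EARS2, FARS2, HARS2, IARS2, LARS2, MARS2, NARS2, PARS2, RARS2, SARS2, TARS2, VARS2, WARS2 and YARS2. PARS2 and WARS2, which charge proline and tryptophan in mitochondria, had no peak in any list.

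The cells were SNU-668, a human gastric cancer line, made resistant to erastin, an inducer of the iron-dependent cell death called ferroptosis. Resistance to erastin is taken from the labels' protocols. The sample titles carry the prefix RLS3, which the labels do not explain. All samples carried an shRNA. The knockdown group received shRNA-ALKBH3 and was labelled ALKBH3 knockdown, and the control group received shRNA-NC and was labelled WT. Each group had 3 libraries of RNA pulled down with an antibody against m1A (IP) and 3 input libraries, and each IP library had its own peak list. The comparison asks where m1A peaks differ when ALKBH3, a demethylase that can remove m1A from RNA, is targeted. Whether the replicates were separate cultures is not stated in the labels, so the spread between lists may be technical.

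Each synthetase first activates its amino acid with ATP and then transfers it to the matching tRNA, which the ribosome uses to read a codon. Cytosolic and mitochondrial translation mostly use separate nuclear genes, the latter with names ending in 2, whereas GARS and KARS serve both compartments and were counted here as cytosolic. Several cytosolic synthetases sit together in the multisynthetase complex on scaffold proteins such as AIMP1. m1A is abundant in tRNA itself, but the peaks described here lie on the mRNAs of the enzymes.

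The lists differed widely in length. ALKBH3 knockdown replicates 1 to 3 held 34691, 13056 and 8474 distinct peaks, and control replicates 1 to 3 held 5015, 4894 and 15130. Each peak carries the authors' own log2 enrichment, read here as IP over input, which is set only against other peaks of its list. Knockdown replicate 1 stands apart in length, and results that rest on it are given with and without it. The lists hold no read counts, so depth is unknown, a peak is not an expression level, and the degree of the knockdown was not analysed here. Of 6 epithelial or gastric markers, KRT8 and KRT18 had a peak in all 6 lists, KRT19 in 5, EPCAM in 3 and VIL1 in 2, and CDH1 had none. PTPRC and PECAM1, which mark leukocytes and endothelium, had no peak. COL1A1, a fibroblast collagen, had a peak in 5 lists, and ALB, the hepatocyte albumin, had peaks with a log2 enrichment of 13.3 and 9.51 in knockdown replicates 2 and 3 alone. The part of these transcripts in the results below was not tested.

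Synthetase mRNAs carried m1A peaks in both groups, and the number that did so followed no clear order between the groups. A peak was found on 32, 15 and 9 of the 36 for knockdown replicates 1, 2 and 3, and on 8, 12 and 22 for control replicates 1, 2 and 3. As shares of the 34 members with any peak these were 94.1%, 44.1% and 26.5%, and 23.5%, 35.3% and 64.7%. The same shares over all 10226 genes were 82.4%, 58.7% and 43.8%, and 27.4%, 28.7% and 58.9%. Members mostly followed the length of the list, and lay 14.6 and 17.3 percentage points below all genes in knockdown replicates 2 and 3 and 11.7 above in knockdown replicate 1. The counts of the groups overlap, with the highest in a knockdown list and the lowest in a control list. The mean share was 51.9% ± 33.1 (SD, n = 3) in the knockdown and 38.9% ± 20.03 (SD, n = 3) in the controls, a difference of 13.0 percentage points that is smaller than the spread. Without knockdown replicate 1 the difference was -5.56 points, and with every list trimmed to its 4894 most enriched peaks it was -11.1 points. No p-value is given for values summed over members, and 3 lists against 3 cannot go below 0.1 in a two-sided exact permutation test.

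**Figure D1:**
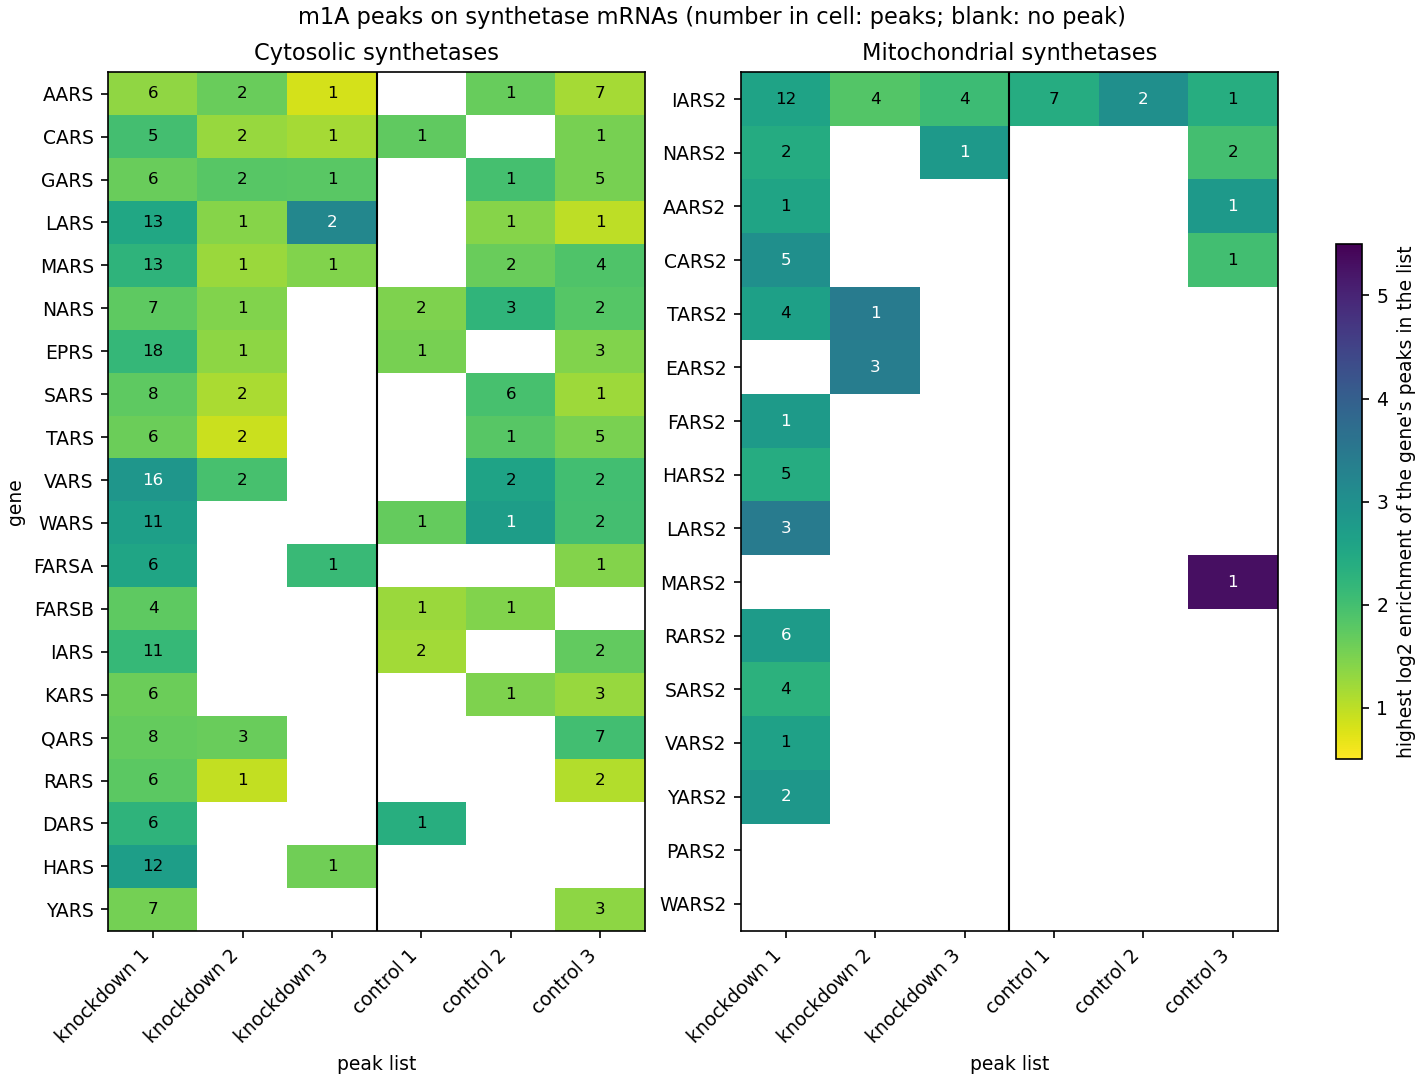
Synthetase genes (rows) with a peak in each of the 6 IP lists (columns), with the authors' highest log2 enrichment per gene and list as colour and the number of peaks printed in the cell. Of the 20 cytosolic genes, 11 have a peak in 4 or 5 lists, and IARS2 is the mitochondrial gene with a peak in all 6 lists.

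Set against list length, the synthetases were not uniformly rich or poor in peaks. They held 221, 28 and 13 distinct peaks in knockdown replicates 1, 2 and 3, followed by 16, 22 and 57 in control replicates 1, 2 and 3. Per 1000 peaks of the same list this came to 6.37, 2.14 and 1.53 in the knockdown and 3.19, 4.50 and 3.77 in the controls. Knockdown replicate 1 lies above all control lists, and the other two knockdown lists lie below all of them. Means were 3.35 ± 2.63 and 3.82 ± 0.654 per 1000 peaks (SD, n = 3 each), and without knockdown replicate 1 the difference, knockdown minus control, was -1.98. Knockdown replicate 1 held 61.9% of the 357 synthetase peaks over all lists, and 42.7% of the peaks of all genes.

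Few synthetases had a peak in clearly more lists of one group. HARS and TARS2 had a peak in at least 2 more knockdown than control lists, 2 of the 34 (5.88%), against 20.1% of the 10226 genes. WARS had one in at least 2 more control lists, 1 of 34 (2.94%), against 1.76% of all genes. None had peaks throughout the 3 knockdown lists while lacking them in every control, which held for 2.90% of all genes, and none showed the reverse, which held for 0.0391%. Each of the 3 calls sat exactly at the limit of 2 lists. Leaving out a list of the favoured group that held a peak was therefore bound to undo the call. For HARS these lists were knockdown replicates 1 and 3, for TARS2 knockdown replicates 1 and 2, and for WARS each of the control replicates. At equal list length HARS and TARS2 were no longer called, and at a minimum enrichment of 4-fold HARS and WARS were not. Leaving out control replicate 3 raised the number of members called toward the knockdown to 11, and leaving out knockdown replicate 1 lowered it to 0. The limit of 2 lists was kept although the groups then differed in number of lists. The shares over all genes at these settings are not given, so these counts cannot be read as particular to synthetases.

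HARS, the cytosolic histidyl-tRNA synthetase, had 12 peaks in knockdown replicate 1, with a log2 enrichment of up to 2.69, and 1 peak in knockdown replicate 3, at 1.59. That second peak, in coding sequence at chr5:140057594-140057618 (hg19, minus strand), had the same start and end as a peak of knockdown replicate 1 at 1.77. No other list had a HARS peak. TARS2, which charges threonine in mitochondria, had 4 peaks in knockdown replicate 1, with the highest at 2.65, and 1 in knockdown replicate 2 at 3.41 (chr1:150461103-150461533, plus strand, coding sequence). Both lists with a TARS2 peak were knockdown lists.

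WARS, the cytosolic tryptophanyl-tRNA synthetase and an interferon-inducible gene, had 1, 1 and 2 peaks in control replicates 1, 2 and 3. Their highest log2 enrichments were 1.69, 2.71 and 2.00 in that order. Knockdown replicate 1 had 11 WARS peaks, with the highest at 2.67 in the 5′ UTR (chr14:100840473-100840597, minus strand), and knockdown replicates 2 and 3 had none. The control peaks did not fall on 1 place. Control replicate 2 had its peak in the 3′ UTR at chr14:100800825-100800924, and that of control replicate 1 spanned chr14:100803528-100808824 across spliced exons. No base of WARS was covered in 3 or more lists.

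IARS2, the mitochondrial isoleucyl-tRNA synthetase, was the only synthetase with a peak in all 6 lists, 1 of 34 (2.94%) against 7.55% of all genes. It had 12, 4 and 4 peaks in knockdown replicates 1, 2 and 3 and 7, 2 and 1 in the control replicates. Its highest log2 enrichments were 2.61, 1.83 and 2.08 in the knockdown and 2.41, 3.01 and 2.38 in the controls. Within their own lists these peaks ranked at percentiles 79.6, 30.4 and 48.9 of all peaks in the knockdown, and 85.2, 74.4 and 62.7 in the control. Ranks from lists of different length cannot show whether there was a change.

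A large part of the IARS2 peaks lay at the 3′ end of the mRNA. Of its 30 peaks over all lists, 12 lay within 450 nt at chr1:220320918-220321367 (plus strand), a window that runs from the end of the coding sequence into the 3′ UTR and had a peak in every list. The lists did not cover the same bases there. A stretch of 25 nt at chr1:220321043-220321067 was covered in all 3 knockdown lists and control replicate 2. Another of 50 nt at chr1:220321293-220321342, further along the 3′ UTR, was covered in all 3 control lists and knockdown replicate 1. No base of the window was covered in all 6 lists, and fragments of about 300 nt blur such positions.

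**Figure D2:**
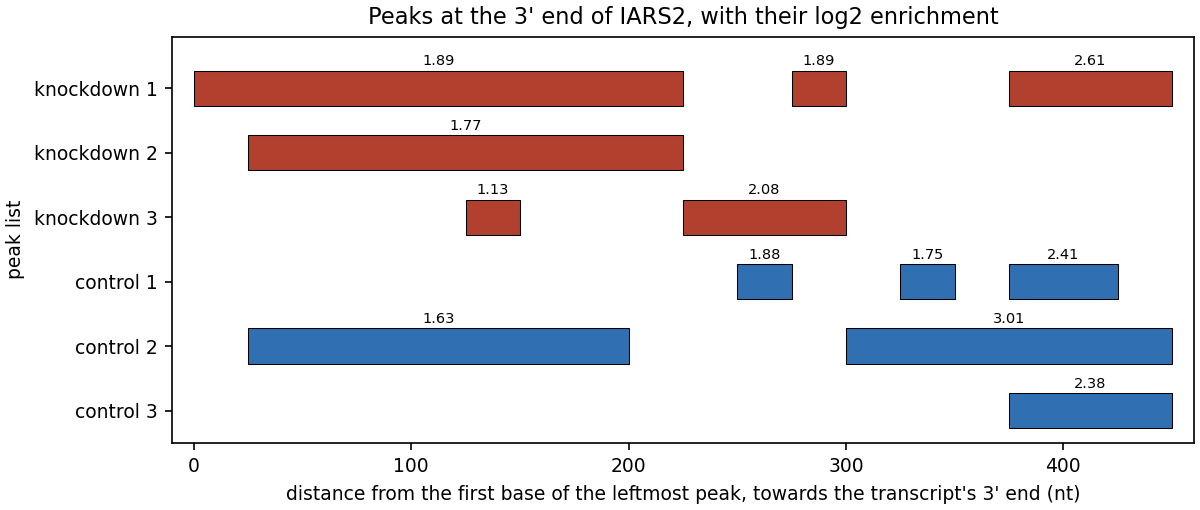
Peaks of IARS2 in its 3′ window, as distance in nt from the first base of the window (x axis), with 1 row per IP list and the authors' log2 enrichment above each bar. Every list has a bar, and no base lies under bars of all 6 lists.

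Cytosolic synthetases had peaks more often than mitochondrial ones in every list as deposited. This order turned in 4 of 6 lists, on few genes, when each was trimmed to its most enriched peaks. Of the 20 cytosolic genes, 20, 12 and 7 had a peak in knockdown replicates 1, 2 and 3, whereas control replicates 1, 2 and 3 had 7, 11 and 17. Of the 16 mitochondrial genes, 12, 3 and 2 had one in the knockdown and 1, 1 and 5 in the controls. The cytosolic share was 65.0% ± 32.8 in the knockdown and 58.3% ± 25.2 in the control (SD, n = 3 each). For the mitochondrial share the values were 35.4% ± 34.4 and 14.6% ± 14.4. Within a list, the cytosolic share exceeded the mitochondrial by 29.6 ± 10.2 percentage points in the knockdown and 43.8 ± 13.2 in the control, so this gap differed between the groups by about 1 SD. With every list trimmed to its 4894 most enriched peaks the gap was -13.75, -12.5 and -2.5 points in the knockdown and 28.75, 48.75 and -12.5 in the controls. In the 4 lists with a negative gap, only 5.56% to 11.1% of all members still had a peak. In knockdown replicate 3 the trimmed shares were 10% cytosolic and 12.5% mitochondrial, on equal numbers of genes. The gap there comes only from the 20 and 16 genes listed. Trimming sets a limit on enrichment that is strictest in the longest list. It left control replicate 2 whole and control replicate 1, with 5015 peaks, nearly so. It therefore cannot separate list length from enrichment. Without knockdown replicate 1 the mitochondrial difference between groups was 1.04 points, down from 20.8.

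All 20 cytosolic genes had a peak in at least 2 lists, and the 9 members with a peak in 1 list were all mitochondrial. FARS2, HARS2, LARS2, RARS2, SARS2, VARS2 and YARS2 had theirs in knockdown replicate 1. EARS2, the mitochondrial glutamyl-tRNA synthetase, had 3 peaks in knockdown replicate 2, with log2 enrichments of 3.19 to 3.38. MARS2, the mitochondrial methionyl-tRNA synthetase, had 1 peak in control replicate 3, in the 3′ UTR at chr2:198572737-198572911 (plus strand). At a log2 enrichment of 5.30 it was the highest synthetase peak of the study and lay at percentile 99.1 of its list. The 4 SARS2 peaks also carried the names of 2 other genes, FBXO17 and CTC-360G5.8, and cannot be given to SARS2 alone. A HARS2 peak of knockdown replicate 1 also carried the name of ZMAT2.

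**Figure D3:**
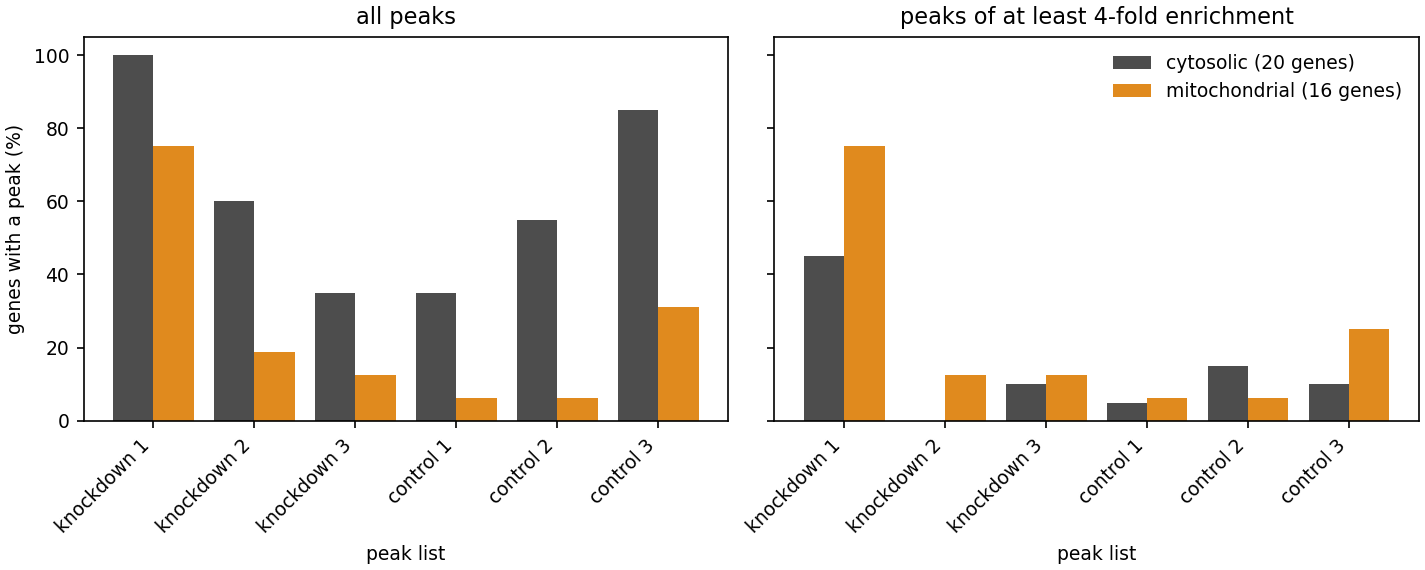
Percentage of the 20 cytosolic and 16 mitochondrial synthetase genes with a peak in each IP list (bars, 1 pair per list), for all peaks on the left and for peaks enriched at least 4-fold on the right. The cytosolic share is higher in all 6 lists over all peaks, and the mitochondrial share is higher in 5 of 6 lists at the stricter limit, in 2 of them with equal numbers of genes.

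The order of the compartments was no longer the same when only strong peaks were counted. At a minimum of 4-fold enrichment, 9, 0 and 2 of the 20 cytosolic genes still had a peak in knockdown replicates 1, 2 and 3, and 1, 3 and 2 in the control replicates. Of the 16 mitochondrial genes, 12, 2 and 2 had one in the knockdown and 1, 1 and 4 in the controls. The mitochondrial share was then the higher in 5 of the 6 lists, with control replicate 2 the exception at 6.25% against 15%. In knockdown replicate 3 and control replicate 1 both compartments had the same number of genes, so the shares differ there only through 16 and 20 genes listed. All mitochondrial peaks of control replicates 1 and 2 lay on IARS2. The median log2 enrichment of mitochondrial peaks was 2.22, 2.51 and 1.35 in the knockdown and 1.60, 2.32 and 2.19 in the controls. For cytosolic peaks it was 1.44, 1.27 and 1.57, and 1.47, 1.59 and 1.27. Mitochondrial peaks had the higher median in every list but knockdown replicate 3, where they numbered 5.

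Transcript length and number of peaks were loosely related. Length was that of the longest transcript given for any of a gene's peaks. Its median was 3095.5 nt over the cytosolic genes and 2624 nt over the 14 mitochondrial genes with a peak. More peaks can bring in more transcripts, so length and peak number are not independent here. In knockdown replicate 1 the median number of peaks was 7 on a cytosolic gene (4 to 18) and 2.5 on a mitochondrial one (0 to 12). Across the 34 genes, which are not replicates, Spearman's rho of length with the peak number in that list was 0.27.

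Cytosolic synthetase peaks, which make up most member peaks, were enriched less than the typical peak of their list, and mitochondrial ones slightly more in 5 of 6 lists. Over both compartments the median log2 enrichment was 1.55, 1.46 and 1.55 in knockdown replicates 1, 2 and 3 and 1.497, 1.63 and 1.31 in control replicates 1, 2 and 3. The median over all peaks of the same lists was 2.00, 2.29 and 2.11, and 1.58, 2.25 and 2.07. The pooled synthetase median was lower in 6 of 6 lists, least so in control replicate 1, where the typical member peak lay at percentile 45.1 against 15.98 to 26.0 elsewhere. Mitochondrial peaks alone, with the medians given above, lay over the all-peak median in every list but knockdown replicate 3, at 1.35 against 2.11, and cytosolic peaks lay under it in all 6. Outside knockdown replicate 1 the mitochondrial peaks were few, 8 and 5 in knockdown replicates 2 and 3 and 7, 2 and 6 in the controls. Those of control replicates 1 and 2 were all on IARS2, and in control replicate 1 the medians were close, at 1.597 against 1.585. Enrichments of at least 4-fold were reached by 23.1%, 14.3% and 30.8% of synthetase peaks in the knockdown and 12.5%, 27.3% and 10.5% in the controls. Among all peaks the shares were 50.1%, 62.3% and 54.8%, and 29.0%, 60.0% and 53.3%.

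**Figure D4:**
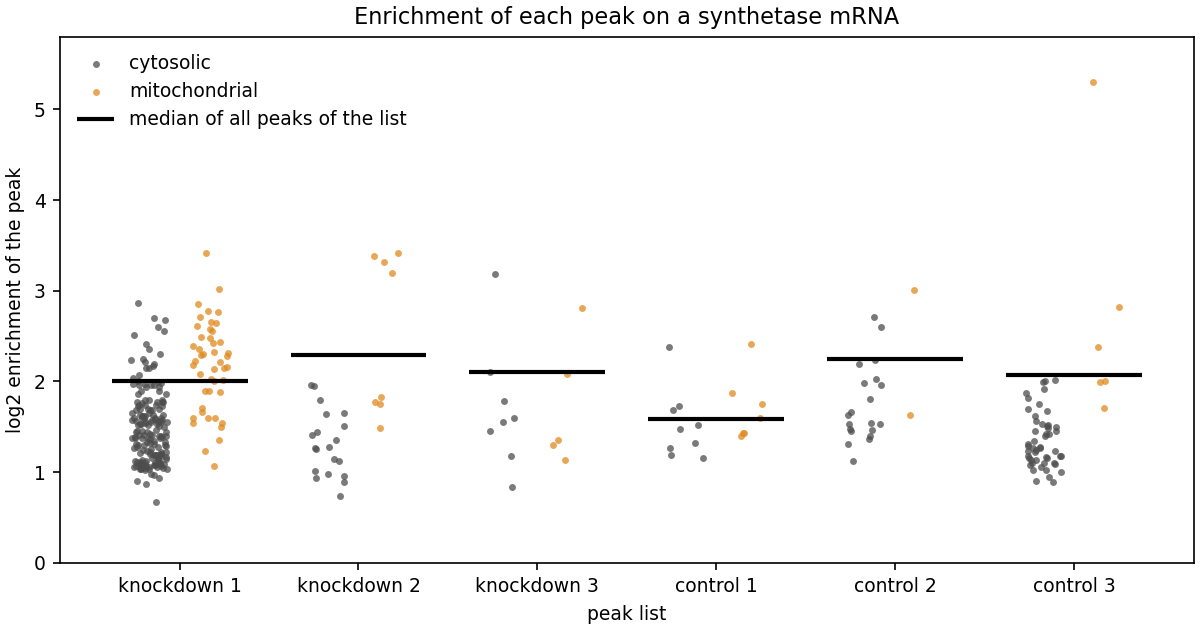
Authors' log2 enrichment of each synthetase peak (points, cytosolic and mitochondrial in separate colours) by IP list, with the median of all peaks of that list as a black line. Most cytosolic points lie below the line of their list, and the MARS2 peak of control replicate 3 stands highest at 5.30.

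The enzymes of the multisynthetase complex, EPRS, IARS, LARS, MARS, QARS, RARS, KARS and DARS, also varied from list to list. A peak was present on 8, 5 and 2 of these 8 in knockdown replicates 1, 2 and 3, whereas control replicates 1, 2 and 3 had 3, 3 and 7. In the same order, 82.4%, 58.7% and 43.8%, and 27.4%, 28.7% and 58.9%, of all genes with any peak had one. MARS, which charges methionine, had highest log2 enrichments of 2.24, 1.25 and 1.45 in the knockdown and 1.63 and 1.87 in control replicates 2 and 3. LARS, the leucyl-tRNA synthetase and an amino acid sensor for mTORC1, had 2.51, 1.41 and 3.19 in the knockdown and 1.40 and 1.00 in control replicates 2 and 3. The LARS peak at 3.19 was a 3′ UTR peak of knockdown replicate 3 at chr5:145493351-145493500 (minus strand). Neither gene had a peak in control replicate 1.

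EPRS, which carries both the glutamyl and the prolyl enzyme, had 2.17 and 1.36 in knockdown replicates 1 and 2 and 1.52 and 1.46 in control replicates 1 and 3. Its 3′ UTR peak at chr1:220141943-220142117 (minus strand) had the same start and end in knockdown replicate 2 and control replicate 3, at 1.36 and 1.46. IARS had 2.15 in knockdown replicate 1 and 1.19 and 1.69 in control replicates 1 and 3. KARS had 1.63 in that knockdown list and 1.47 and 1.26 in control replicates 2 and 3. Both lacked a peak in knockdown replicates 2 and 3. QARS had 1.68 and 1.64 in knockdown replicates 1 and 2 and 2.01 in control replicate 3. RARS had 1.77, 0.95 and 1.08 in the same 3 lists. DARS, with a peak in the fewest lists of these enzymes, had 2.25 in knockdown replicate 1 and 2.37 in control replicate 1.

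Peaks on synthetases fell on the same bases in different lists about as often as those of all genes. Peaks of the 6 lists were joined wherever they shared a base, which gave 254 positions on synthetases, of which 55 (21.7%) had a peak in at least 2 lists, against 19.1% of 57090 positions over all genes. None had a peak in all 6 lists, against 0.646% of positions over all genes. Identical start and end in a pair of lists were found for 7 of the 350 distinct synthetase peaks (2%, against 1.76% of distinct peaks of all genes found in 2 or more lists), and 4 of these pairs joined a knockdown and a control list. At least 1 base was covered in 3 or more lists on 9 synthetases (26.5% of 34), namely AARS, EPRS, GARS, IARS2, MARS, NARS, RARS, TARS and VARS, against 21.5% of all genes. No synthetase had a base covered in all 6 lists, as 2.35% of all genes did.

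The following examples were chosen after their values were seen. AARS, the alanyl-tRNA synthetase, had 25 nt of coding sequence at chr16:70296324-70296348 (minus strand) covered in all 3 knockdown lists and control replicate 3. The peaks over it had log2 enrichments of 1.13, 0.94 and 0.83 in knockdown replicates 1, 2 and 3 and 1.06 in control replicate 3. GARS, the glycyl-tRNA synthetase, had 50 nt at chr7:30634647-30634696 (plus strand) covered in all 3 knockdown lists, at 1.65, 1.80 and 1.78, and in no control list. In control replicate 3 a GARS peak at 1.52 began shortly after, at position 30634722, so the neighbourhood was not free of peaks in the control. NARS, the asparaginyl-tRNA synthetase, had 125 nt of 3′ UTR at chr18:55267938-55268062 (minus strand) covered in knockdown replicate 2 and control replicates 1 and 2, at 1.44, 1.32 and 2.02. TARS, which charges threonine in the cytosol, had a 3′ UTR peak of the same start and end in control replicates 2 and 3, at chr5:33467997-33468171 (plus strand), with 1.81 and 1.45.

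The share of synthetase peaks in coding sequence was above that of all peaks in each list, a difference that was not tested. Coding sequence alone was given for 64.3% (142 of 221; Wilson 95% interval 57.7 to 70.3), 78.6% (22 of 28; 60.5 to 89.8) and 61.5% (8 of 13; 35.5 to 82.3) in knockdown replicates 1, 2 and 3. The share for control replicates 1, 2 and 3 was 37.5% (6 of 16; 18.5 to 61.4), 31.8% (7 of 22; 16.4 to 52.7) and 68.4% (39 of 57; 55.5 to 79.0). Intervals cover counting error only, and peaks on 1 gene are not independent. Among all peaks the shares were 55.7%, 45.3% and 39.9% in the knockdown and 26.0%, 25.3% and 37.7% in the control, below the synthetase share in 6 of 6 lists. The all-peak share lay inside the interval of the synthetase share in knockdown replicate 3 and control replicates 1 and 2, and below it in the other three lists.

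The group means of the coding share were 68.1% ± 9.15 and 45.9% ± 19.7 (SD, n = 3 each), 22.2 percentage points apart. The groups overlap through control replicate 3, without which the difference was 33.5 points. The share in the 3′ UTR alone was 6.79%, 14.3% and 30.8% in the knockdown and 50%, 50% and 14.0% in the controls, with means of 17.3% ± 12.3 and 38.0% ± 20.8. Of all peaks, 19.7%, 39.2% and 44.1% in the knockdown and 57.5%, 59.6% and 44.3% in the control lay there, so the same order of groups was present over all genes. Control replicate 3, again the exception among synthetases, was also the longest control list, and list length and region were not separated here.

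**Figure D5:**
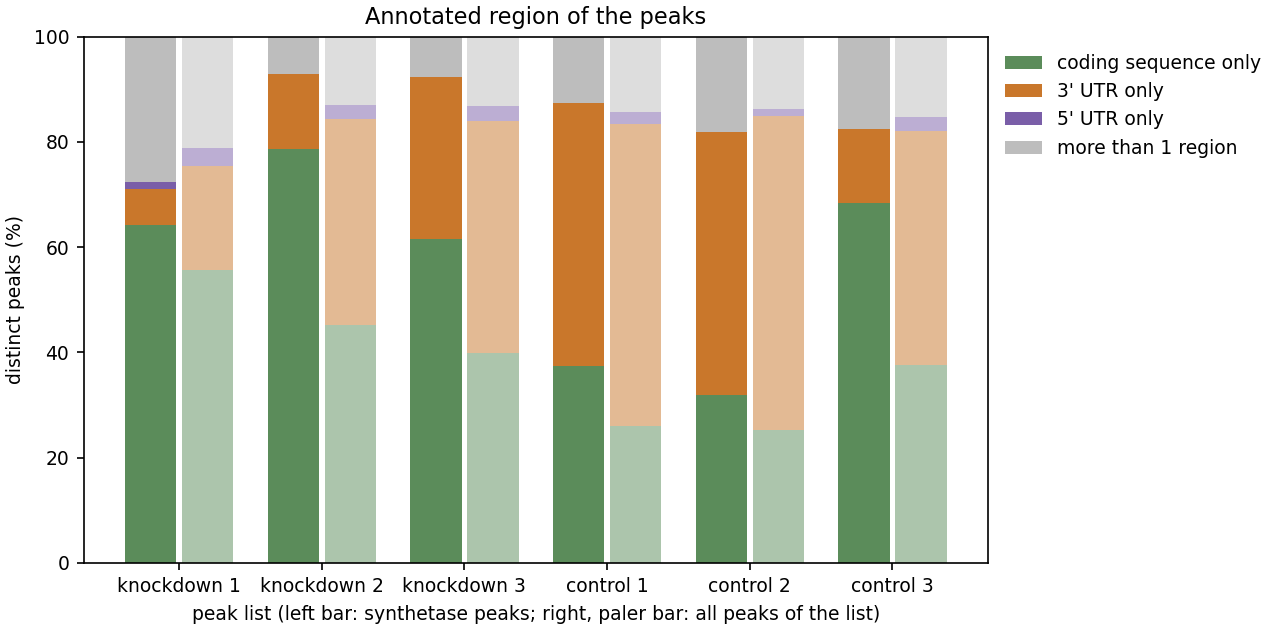
Percentage of synthetase peaks and of all peaks annotated to coding sequence alone, 3′ UTR alone, 5′ UTR alone or more than 1 region, by IP list (left bar synthetases, right and paler bar all peaks). The coding share of synthetase peaks exceeds that of all peaks in each of the 6 lists.

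Peaks given to the 5′ UTR by at least 1 transcript were common on synthetases in 1 list. In this region mRNA m1A has been reported near start codons. Knockdown replicate 1 had 44 such peaks on 17 synthetases (19.9% of its synthetase peaks, against 13.9% of all peaks). The other lists had 1, 1, 1, 0 and 4 such peaks, in the order knockdown replicates 2 and 3 and control replicates 1, 2 and 3. That was 3.57%, 7.69%, 6.25%, 0% and 7.02% of their synthetase peaks, below the 7.92%, 7.91%, 6.30%, 3.92% and 8.29% of all their peaks. Only 3 peaks lay in the 5′ UTR alone, all in knockdown replicate 1. Most of the others were coding sequence alone on 1 transcript and reached the 5′ UTR on another, so their place is ambiguous. This held also for the single peaks of knockdown replicates 2 and 3, on MARS, and of control replicate 1, on IARS. The shares above count any transcript, so they cannot be read as shares of peaks lying in the 5′ UTR.

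The proteins that work beside the synthetases also varied from list to list, with overlapping groups. Of 23 such genes, 19, 11 and 8 had a peak in knockdown replicates 1, 2 and 3, whereas control replicates 1, 2 and 3 had 7, 11 and 12, a mean of 55.1% ± 24.7 against 43.5% ± 11.5 (SD, n = 3 each). Without knockdown replicate 1 the difference was -2.17 points. AIMP1, a scaffold of the multisynthetase complex, had a peak in every list, with highest log2 enrichments of 2.80, 2.89 and 3.78 in the knockdown and 1.96, 2.40 and 3.24 in the control. The translation elongation factors EEF1A1, which carries charged tRNA to the ribosome, and EEF1G also had a peak in all 6 lists. These were 3 of the 19 partners with a peak in any list, and 7.55% of all genes had a peak in all 6. The difference was not tested.

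Of the 19 partners with a peak, 2 (10.5%) were in at least 2 more knockdown lists, against 20.1% of all genes, and 1 (5.26%) in at least 2 more control lists, against 1.76%. AARSD1, which removes serine wrongly joined to alanine tRNA, and PTRH2, a peptidyl-tRNA hydrolase, had peaks in knockdown replicates 1 and 2 and in no control list. Their highest log2 enrichments were 2.06 and 1.90 for AARSD1 and 2.56 and 2.85 for PTRH2. EEF1B2, an exchange factor for the tRNA carrier, had 1.45, 2.04 and 1.68 in control replicates 1, 2 and 3 and 1.82 in knockdown replicate 1. No list had a peak on QRSL1 and MTFMT, which amidate and formylate charged mitochondrial tRNA, or on PSTK and SEPSECS, which make selenocysteine on its tRNA.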

How the data were processed

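m1A IP and input libraries of SNU-668 cells were made by the authors from mRNA broken into pieces of about 300 nt and read at 150 nt, per the labels' protocols. FastQC 0.11.7, Trimmomatic 0.32, HISAT2 2.1.0 and build hg19 are named in the submitters' processing notes, without roles. Which peak caller was used is not given in the sources used here. From each IP library the authors deposited 1 list, called per sample, with 1 entry per annotated transcript. Its log2 fold change per peak, per the file headers, is read as IP over input, although the header names no sides. The p-value and FDR per peak are the authors' deposited values, and every p-value lies below 1e-10. Enrichments were used only within a list. Other deposited values (RNA length) were used as transcript lengths.

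Entries with equal chromosome, start, end and strand were taken as 1 distinct peak, and peaks were joined or counted per base over exon blocks. The region of a peak was counted as coding sequence or UTR alone only where all its transcripts gave that region. Peaks reaching the 5′ UTR were counted where at least 1 transcript gave it. Positions are hg19, counted from 1. All 36 names matched a current symbol, 18 of them with the ending 1 added. Each list gave 1 value per measure. The exact permutation tests planned for 9 measures could not go below 0.1, and their p-values are not printed. Scripts were tested on simulated peak lists with known answers and run in Python 3.11.15 with pandas 2.3.3 and scipy 1.17.1.

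Values in every list are given for members found in at least 2 more lists of one group, members in all 6 lists, the complex enzymes and the partners in at least 2 more lists of one group. Members and lists were chosen with earlier results of these data known. The alternatives were peaks of at least 4-fold enrichment, a -log10 FDR of at least 5, lists trimmed to equal length (their 4894 most enriched peaks), peaks with 1 gene name, uncollapsed entries, each replicate left out, a replicate block and, chosen after seeing the data, both longest lists left out. Same-numbered lists deviated with correlations of 0.0366, 0.0413 and -0.0114 over genes, so the numbers were not taken as pairs. A search for the T-loop motif in peaks was not run, since no hg19 genome was used here.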

Additional observations from a re-analysis of the deposited data

How the results depend on the processing

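Differences are knockdown minus control. Of 114 values of group differences under an alternative, 102 kept their direction and 12 reversed. The 102 include values that could not move. The limit on -log10 FDR removed no peak, as the highest FDR in any list was 1.04e-08. A replicate block changes the test and not the difference. With peaks of at least 4-fold enrichment, synthetase peaks per 1000 reversed to 0.0403, 4 members were in at least 2 more knockdown lists, 0 in at least 2 more control lists and 0 in all 6 lists. At equal list length, the difference in members with a peak reversed to -11.1 percentage points, that of log2 peak number to -1.15, that of cytosolic members to -25.0 points and that of the partners to -15.9 points, with 0 members toward the knockdown, 3 toward the control and 0 in all 6 lists. The cause was not tested. Counts of members called under an alternative, here and below, come without the share over all genes at that setting. They cannot be read as high or low.

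With a replicate left out, the differences ranged from -5.56 to 26.4 points for members with a peak, -10.8 to 21.7 for cytosolic members, 1.04 to 32.3 for mitochondrial members and -21.7 to -9.17 for the gap between them. They ranged from -0.51 to 1.53 for log2 peak number, -1.98 to 0.440 for peaks per 1000, 15.2 to 33.5 points for the coding share, -32.7 to -14.7 for the 3′ UTR share and -2.17 to 21.7 for the partners. Members toward the knockdown ranged from 0 to 11, toward the control from 0 to 5 and in every remaining list from 1 to 5, and joined positions in every list stayed at 0. The replicate block left each difference as it was, 13.0 points for members with a peak, with a smallest possible p of 0.25 for 3 pairs. Without the longest list of each group it was 5.56 points. HARS, TARS2 and WARS differed by 1, 2 and 0 lists at 4-fold, and by 0, 1 and -2 at equal list length. Depth is unknown, so how far list length follows it could not be measured.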
